A study of Mus musculus with 6 samples.

Results

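The genes described here are 44 enzymes that make, recycle or break down nucleotides, with the folate enzymes that feed them, out of 17546 genes in the deposited table. They were chosen by name from a list of nucleotide and one-carbon genes, and all 44 were in the table and passed the filter on low counts. The libraries are bulk RNA-seq of ILC2s (group 2 innate lymphoid cells, which carry no antigen receptor) isolated from the lungs of BALB/c mice after 3 intranasal injections of 1 µg of recombinant mouse IL-33, an alarmin that activates them. The cytokines IL-2 and IL-7 (10 ng/mL of each) were present in every culture; 3 libraries came from cells kept with DMSO for 24 h and 3 from cells kept with 10 µM Yoda1. Yoda1 is a small molecule that opens the mechanosensitive calcium channel Piezo1. The comparison asks how these enzymes' transcripts stand with the compound. No library comes from cells in which the channel was removed or blocked, so the part of Piezo1 itself was not tested. The labels give no sex or age of the animals, and nothing in them says that libraries of a group are separate animals or cultures, so a p-value here measures the spread between libraries, which may be technical. The deposited table names the control PBS where the sample labels say DMSO, and the labels were followed. DMSO 2 and DMSO 3 share a library number in the labels, as do Yoda1 4 and Yoda1 5, and such pairs may not be independent samples. The labels also end in a number whose meaning they do not give, 0 for DMSO 1 and DMSO 2 and 45 to 48 for DMSO 3 and all Yoda1 libraries, so that it partly follows the treatment; one alternative fit below holds this difference (0 or not) as a term and then compares Yoda1 with DMSO 3 alone.

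A proliferating lymphocyte builds purine rings step by step on phosphoribosyl pyrophosphate (PRPP) and pyrimidine rings from carbamoyl phosphate, with one-carbon units carried by folate. Ribonucleotide reductase then turns ribonucleotides into the deoxynucleotides (dNTPs) that DNA synthesis uses, and thymidylate synthase adds the methyl group that makes thymidylate. Salvage enzymes recover free bases and nucleosides instead. The deoxynucleoside kinases among them have cytosolic forms, and mitochondrial forms that serve mitochondrial DNA. The members were therefore grouped into de novo synthesis (20 genes), salvage (12), one-carbon enzymes (5) and 7 shared enzymes, which make PRPP, phosphorylate nucleotides or degrade dNTPs.

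Total counts ran from 14214048 to 31627519 per library. All 14 ILC2 markers were in the table, with a summed level of 11539 to 12315 CPM (read counts scaled to a common library size) with DMSO and 12869 to 13686 CPM with Yoda1; among them Thy1 was near 0, at 0.115 to 2.89 CPM. Much of that sum was Il5 (5343 to 8258 CPM), and the markers did not move one way: 7 log2 changes were below 0 and 7 above, Icos (-0.89) and Il2ra (-0.67) fell and Arg1 (0.93) rose. Levels of other cells' markers differed between the groups as follows. The summed level of 9 epithelial genes was 91.6, 423 and 405 CPM in DMSO 1, 2 and 3 and 55.2 to 76.1 CPM with Yoda1. In DMSO 2 and DMSO 3 most of this was the club cell gene Scgb1a1, which was at 302 and 293 CPM there and at 0 in DMSO 1. The summed level of 7 macrophage genes was 11.7 to 15.7 CPM with DMSO and 65.7 to 117 CPM with Yoda1, most of it Chil3 (42.0 to 92.8 CPM). Of these genes Lyz2 was at 1.30 to 4.94 CPM with DMSO and 6.38 to 11.0 CPM with Yoda1 and Cd68 at 6.44 to 10.2 and 8.24 to 13.9 CPM, while Adgre1 was at 0 in all Yoda1 libraries and Csf1r and C1qb were at most 0.333 and 0.289 CPM in any library. All 3 macrophage genes tested had positive log2 changes; Chil3 passed in edgeR, and DESeq2 called Chil3 and Lyz2 higher. The NK and ILC1 list, 5 genes with the granzymes Gzma and Gzmb among them, summed to 155 to 211 CPM with DMSO and 44.3 to 62.0 CPM with Yoda1. Nearly all of it was granzyme. Gzmb was at 119 to 148 CPM with DMSO and 31.1 to 44.8 CPM with Yoda1, and Gzma at 35.8 to 58.8 and 11.3 to 14.6 CPM. Prf1, the only other gene of this list tested, had a positive log2 change (0.42). Eomes and Tbx21 were at most 0.819 and 0.538 CPM in any library. The T cell list (3 genes in the table) summed to 33.7 to 36.6 and 19.3 to 29.1 CPM, the B cell list (1 gene) to 23.4 to 39.9 and 22.3 to 31.9 CPM, and the granulocyte list (1 gene) to at most 0.563 CPM. The part of these cells or transcripts in the results below was not tested. The fits across genes were repeated with DMSO 1 alone as the control, but this does not test it. That fit has 1 control library and leaves the differences of Chil3 and the granzymes in place. In bulk libraries, fewer cells of a type or in a cycle phase and less RNA per cell cannot be told apart.

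Rrm2, which encodes a subunit of ribonucleotide reductase, fell with Yoda1. The uridine phosphorylase gene Upp1 and the dNTP hydrolase gene Samhd1 rose. The other 41 members did not pass. A gene passed, here and below, when its edgeR quasi-likelihood p, adjusted by the Benjamini-Hochberg procedure over all 13325 tested genes, was under 0.05. Across all tested genes 0.923% were lower and 0.570% were higher by that test, beside 2.27% and 4.55% of the members. Without adjustment, p was under 0.05 for 13 members that were lower and 2 that were higher (29.5% and 4.55% of the members, against 7.11% and 7.39% of all tested genes). All 3 Yoda1 libraries lay below all 3 DMSO libraries for 13 members (29.5%, against 12.0% of all tested genes) and above them for 4 (9.09%, against 10.6%). DESeq2 called 9 members lower and 2 higher, with 3.39% and 3.11% of all genes called, and limma voom called 4 lower and 2 higher, with 1.34% and 0.908% of all genes called. By class, the median log2 change of Yoda1 over DMSO was -0.57 for the one-carbon enzymes, -0.25 for de novo synthesis, -0.08 for salvage and -0.04 for the shared enzymes, beside 0.01 over all tested genes. The de novo class takes in 6 dNTP formation genes (median -0.46) beside 9 purine (-0.12) and 5 pyrimidine genes (-0.15). Its median therefore depends on counting dNTP formation as de novo synthesis. The median of the shared enzymes had no stable sign: it was 0.02 without Yoda1 4, 0.03 without Yoda1 5 and -0.10 without Yoda1 6. The log2 change was below 0 for 34 members (77.3%, against 49.0% of all tested genes).

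**Figure D1:**
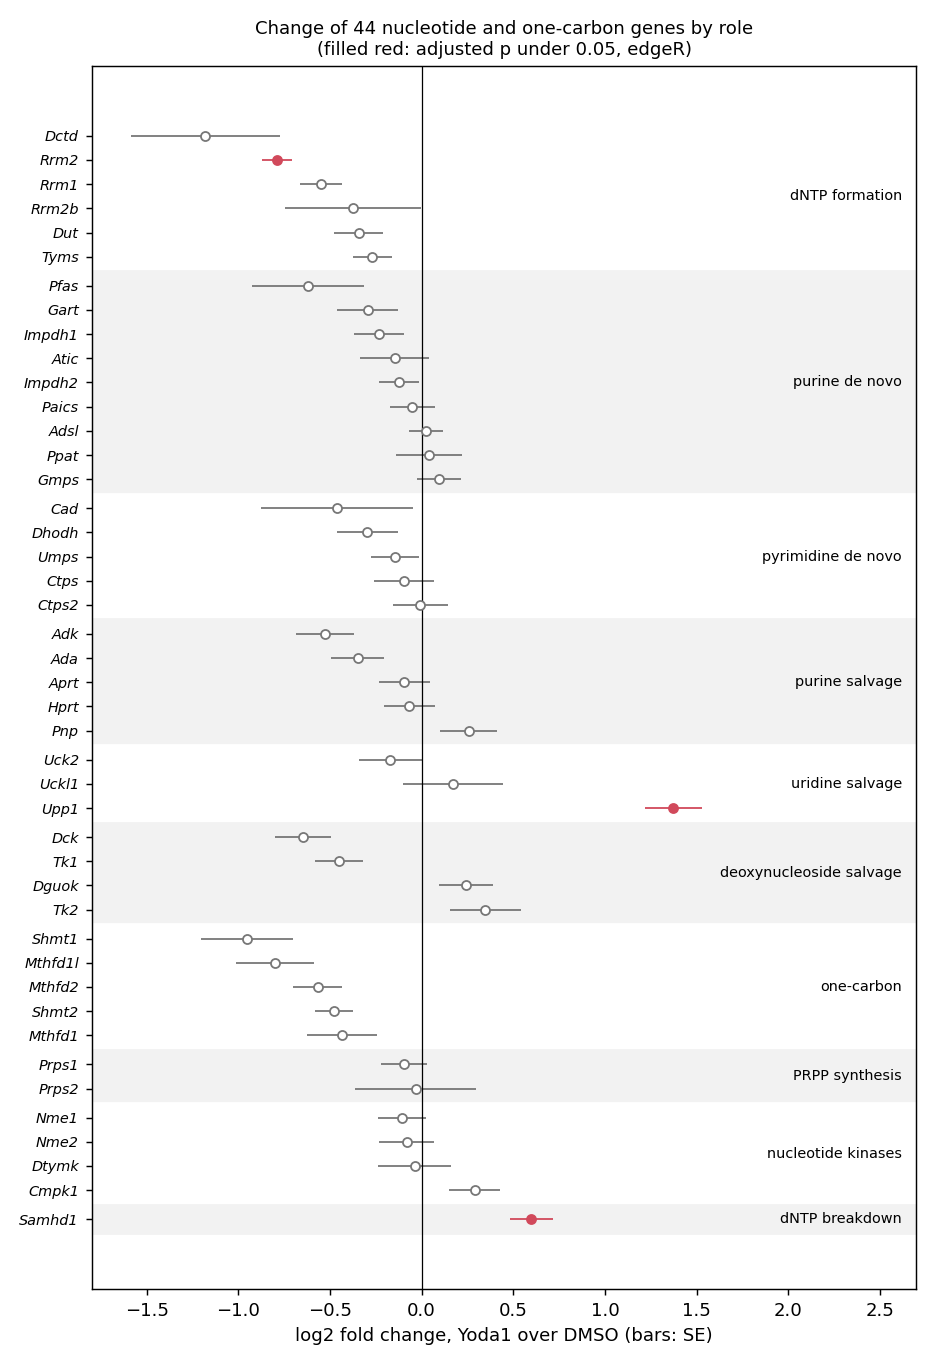
Each point is the log2 fold change of Yoda1 over DMSO of one gene with its standard error (edgeR, 3 libraries per group), grouped by role, and filled red points passed an adjusted p of 0.05. All 6 dNTP formation genes and all 5 one-carbon genes lie left of 0, while the 9 purine de novo genes lie on both sides; Rrm2, Upp1 and Samhd1 are the red points.

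Ribonucleotide reductase is the committed step from ribonucleotides to dNTPs, built from the large subunit Rrm1 and a small subunit, which is Rrm2 in dividing cells and Rrm2b outside S phase and after DNA damage. The level of Rrm2 was 1227, 1363 and 1379 CPM in the DMSO libraries 1 to 3. In the Yoda1 libraries 4 to 6, always given in this order, it was 802, 714 and 780.4 CPM. Its groups were far apart, and the lowest DMSO library was above the highest Yoda1 library by more than the spread within either group. The means were 1323 ± 83.6 CPM and 766 ± 45.8 CPM (SD, n = 3 per group), a log2 change of -0.79 (SE 0.08, adjusted p = 0.00537). Rrm2 lies on chromosome 12 at 24708241 to 24714146 (GENCODE M21 on GRCm38, plus strand). Over 15 alternatives its log2 change was -0.85 to -0.69, but the adjusted p ran from 3.58e-14 to 0.584 and was above 0.05 without DMSO 2 (0.0515), without DMSO 3 (0.0606), with libraries of a shared number summed (0.167), with the label's end number as a term (0.145) and with DMSO 1 as the only control (0.584, log2 change -0.69).

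Rrm1 was at 447, 482 and 517 CPM with DMSO and 369, 334 and 285 CPM with Yoda1. Its groups did not overlap, and its log2 change of -0.55 (SE 0.12) missed the threshold over all genes (adjusted p = 0.0616). It passed in 4 of 15 alternatives: DESeq2 (0.000434), voom (0.0365), upper quartile factors (0.0347) and a filter of 10 CPM (0.0104); the highest adjusted p was 0.855, with DMSO 1 as the only control. Rrm2b was at 9.16, 10.7 and 11.1 CPM with DMSO and 7.81, 11.5 and 4.595 CPM with Yoda1, and its groups overlapped. Per kilobase of exon, Rrm2 stood highest of all 44 members in the DMSO libraries, at 477 ± 30.2 CPM per kb (SD, n = 3). Rrm1 was at 43.7 ± 3.18 and Rrm2b lowest at 1.13 ± 0.112. The length used is the union of all annotated exons, 2771 bases for Rrm2, 11012 for Rrm1 and 9134 for Rrm2b. A single transcript can be shorter than this union, so the distances per kilobase depend on that choice. With Yoda1, Rrm2 was still first, at 276 ± 16.5 CPM per kb. Within a library the log2 ratio of Rrm2 to Rrm1 counts was 1.46, 1.50 and 1.42 with DMSO and 1.12, 1.10 and 1.45 with Yoda1, so Yoda1 4 and Yoda1 5 were below all controls and Yoda1 6 was among them (exact permutation test, two-sided p = 0.2, adjusted p = 0.66 over 11 ratios, where 0.1 is the smallest that 3 against 3 can give).

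The remaining dNTP formation genes make thymidylate and its precursor. Tyms, thymidylate synthase, was at 194, 195 and 219 CPM with DMSO and 161, 166 and 177 CPM with Yoda1, with no overlap. Dut, which cleaves dUTP to dUMP, was at 195, 209.9 and 178 CPM and at 137, 145 and 179 CPM, where Yoda1 6 reached the lowest DMSO library. Dctd, which deaminates dCMP to dUMP, was at 8.94, 12.97 and 10.9 CPM with DMSO and 4.26, 2.83 and 7.40 CPM with Yoda1. Their log2 changes were -0.27 (SE 0.10) for Tyms, -0.34 (SE 0.13) for Dut and -1.18 (SE 0.41) for Dctd, and none passed over all genes (adjusted p = 0.286, 0.283 and 0.224). The median of the 6 dNTP formation genes was -0.46. Of these 6 genes only Rrm2 passed in edgeR. DESeq2 and voom called Rrm2 and Rrm1 lower, 5 were lower at 0.05 without adjustment, and none was higher by any of these. Among all tested genes 7.11% were lower at 0.05 without adjustment, and DESeq2 called 3.39% and voom 1.34% lower.

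Samhd1 acts at the other end of the pool, as the hydrolase that breaks dNTPs down to nucleosides. Its level was 122, 125 and 139 CPM with DMSO, and 193, 177 and 214 CPM with Yoda1. Every Yoda1 library was above every DMSO library. Samhd1 rose from 128.5 ± 8.83 to 195 ± 18.3 CPM (SD, n = 3 per group), a log2 change of 0.60 (SE 0.12, adjusted p = 0.0493), and lies on chromosome 2 at 157097533 to 157135265 (minus strand). This call was at the edge of the threshold. It was lost in each of the 6 fits with a library left out (adjusted p = 0.0662 to 0.237), and it held in 4 of 15 alternatives in all, over which the log2 change was 0.49 to 0.66 with an adjusted p from 9.42e-05 to 0.805.

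**Figure D2:**
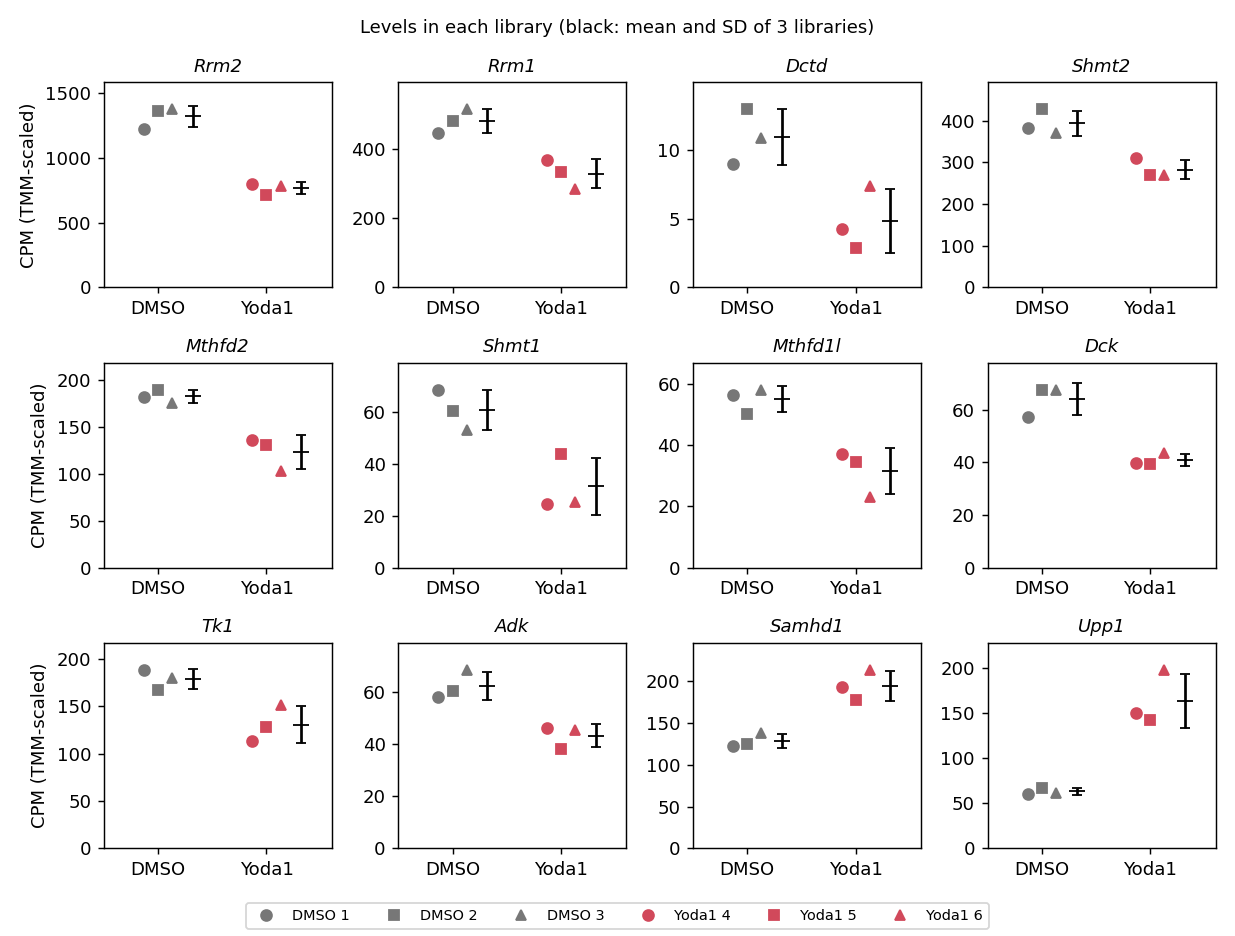
Points are the TMM-scaled CPM of each library (axis from 0), with gray for DMSO and red for Yoda1, and black bars give the mean and SD of 3 libraries. In all 12 genes shown the Yoda1 points lie entirely below the DMSO points, except for Samhd1 and Upp1, where they lie entirely above. The 12 genes were all taken from members whose groups do not overlap, so this separation follows from the choice. Of the 44 members, 13 were lower and 4 higher without overlap (29.5% and 9.09%, against 12.0% and 10.6% of all tested genes).

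The one-carbon enzymes load folate with the carbon of serine, in mitochondria through Shmt2, Mthfd2 and Mthfd1l and in the cytosol through Shmt1 and Mthfd1, and purine and thymidylate synthesis use that carbon. All 5 had negative log2 changes, from -0.95 to -0.43, and for 4 of them the groups did not overlap. None of the 5 passed over all genes in edgeR, while 4 had p under 0.05 before adjustment. DESeq2 called 4 lower and voom called 2 lower, with none higher by any of these. Of all tested genes, 12.0% were lower without overlap and 7.11% were lower at 0.05 before adjustment. DESeq2 called 3.39% of all tested genes lower and voom 1.34%. Shmt2 was at 383, 428 and 369.9 CPM with DMSO and 309.7, 269 and 269.7 CPM with Yoda1, and its log2 change was -0.48 (SE 0.10, adjusted p = 0.0688). Mthfd2 was at 182, 190.2 and 176 CPM and at 137, 131 and 103 CPM, which is -0.57 on the log2 scale (SE 0.13, adjusted p = 0.0793). In both genes every Yoda1 library was below every control.

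Mthfd1l, which completes the mitochondrial arm by releasing formate, was at 56.5, 50.2 and 58.2 CPM with DMSO and 37.2, 34.5 and 23.0 CPM with Yoda1. Shmt1, the cytosolic serine hydroxymethyltransferase, was at 68.9, 60.4 and 53.3 CPM and at 24.5, 44.1 and 25.6 CPM, so that Yoda1 5 lay between the rest of its group and the controls. Mthfd1, the trifunctional cytosolic enzyme, was at 124, 128 and 115 CPM and at 118, 86.6 and 67.7 CPM, and its groups overlapped through Yoda1 4. The log2 changes were -0.80 (SE 0.21) for Mthfd1l, -0.95 (SE 0.25) for Shmt1 and -0.43 (SE 0.19) for Mthfd1 (adjusted p = 0.114, 0.112 and 0.347). Per kilobase of exon in the DMSO libraries the mitochondrial Shmt2 stood at 127 ± 9.83 CPM per kb, above the cytosolic Shmt1 at 15.7 ± 2.00. The log2 ratio of Shmt2 to Shmt1 counts was 2.47, 2.82 and 2.79 with DMSO and 3.66, 2.61 and 3.40 with Yoda1, and that of Mthfd2 to Mthfd1 was 0.55, 0.57 and 0.61 against 0.21, 0.60 and 0.60. Neither ratio separated the groups (exact permutation test, two-sided p = 0.3 and 0.8, adjusted p = 0.66 and 0.88 over 11 ratios), and so few libraries cannot show that the arms act alike. With DMSO 1 as the only control the median of the class was -0.57, as large as with all 3 controls. DMSO 1 is itself 1 of these 3 controls and has no replicate in that fit, so nothing is read from this. Shmt2 overlaps Ndufa4l2 on the opposite strand, Shmt1 overlaps Smcr8 and Mthfd1 overlaps the antisense gene Gm34868, and since no strand setting is given their reads cannot be told apart there.

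The sequence before the start was searched for short motifs, and the members held the most frequent one, CCAAT, no more often than other genes (36.6% of 41 members with a RefSeq start, against 41.0% of 9294 tested genes, in 250 bases on both strands). The 100 bases before the RefSeq start (GRCm38.p6) are printed 5′ to 3′ on the gene's strand for the dNTP formation and one-carbon genes. Those with and without a match can thus be compared. Rrm2b was not matched to a start and Dctd, with several starts, is not printed. The stretches of Dut, Mthfd2 and Shmt1 lie inside the GENCODE M21 span of the gene, and that of Rrm2 ends inside it. The bases after the start were found in a transcript of the gene for 18 of 26 member starts on the plus strand. On the minus strand they were found for 23 of 27. Capitals mark CCAAT, the NF-Y motif, and TTCCCGCC, an E2F-like motif, or their reverse complements ATTGG and GGCGGGAA.
Rrm2, chr12:24708154-24708253, plus strand: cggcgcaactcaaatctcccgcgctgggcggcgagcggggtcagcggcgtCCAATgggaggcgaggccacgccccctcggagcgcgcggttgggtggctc
Rrm1, chr7:102441595-102441694, plus strand: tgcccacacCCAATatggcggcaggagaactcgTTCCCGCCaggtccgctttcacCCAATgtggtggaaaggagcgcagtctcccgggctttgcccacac
Tyms, chr5:30073626-30073725, minus strand: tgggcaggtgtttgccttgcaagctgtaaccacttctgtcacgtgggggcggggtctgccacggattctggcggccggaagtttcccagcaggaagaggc
Dut, chr2:125247415-125247514, plus strand: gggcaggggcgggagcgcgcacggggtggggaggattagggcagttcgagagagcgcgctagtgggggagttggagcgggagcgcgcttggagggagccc
Mthfd2, chr6:83317605-83317704, minus strand: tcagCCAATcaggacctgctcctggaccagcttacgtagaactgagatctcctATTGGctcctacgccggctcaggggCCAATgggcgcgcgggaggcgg
Mthfd1l, chr10:3972975-3973074, plus strand: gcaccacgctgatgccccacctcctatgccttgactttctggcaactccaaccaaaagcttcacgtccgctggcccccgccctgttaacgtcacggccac
Mthfd1, chr12:76255132-76255231, plus strand: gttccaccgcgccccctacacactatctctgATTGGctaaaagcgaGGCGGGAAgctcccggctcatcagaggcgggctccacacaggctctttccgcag
Shmt1, chr11:60811266-60811365, minus strand: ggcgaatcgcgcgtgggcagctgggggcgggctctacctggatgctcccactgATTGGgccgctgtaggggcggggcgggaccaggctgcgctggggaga
Shmt2, chr10:127522445-127522544, minus strand: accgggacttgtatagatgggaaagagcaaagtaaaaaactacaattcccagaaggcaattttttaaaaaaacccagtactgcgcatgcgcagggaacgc
Mthfd2 holds CCAAT at 3 places in this stretch, Rrm1 at 2, Rrm2, Mthfd1 and Shmt1 at 1 each, and Tyms, Dut, Mthfd1l and Shmt2 at none.

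Over the whole 250 bases CCAAT was found in 6 of 10 dNTP formation and one-carbon genes with a start (Dctd among them) and in 9 of 31 other members. This split by role was made after the values were seen and nothing is read from it. Pfas and Dhodh were not matched either. Any of the 5 E2F-like motifs searched (TTTCCCGC, TTTGGCGC, TTTCGCGC, TTCCCGCC, TTGGCGCC) was found in 3 of 41 members, Rrm1, Mthfd1 and Ppat, or 7.32%, against 7.61% of tested genes and 3.91% of all 27025 genes in the promoter table; TTTCCCGC and TTCCCGCC can overlap. The E-box CACGTG was in 14.6% of members and 10.1% of tested genes, and the ATF4-like TGATGNAA in 2.44% and 2.33%. A match describes letters in a window and is not a bound site.

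De novo purine synthesis, from the first step (Ppat) to AMP and GMP precursors, was covered by 9 genes. None passed in edgeR, DESeq2 or voom, none had p under 0.05 without adjustment, and the groups overlapped for all 9. Their median log2 change was -0.12, with 6 below 0 and 3 above; it was -0.02 with DMSO 1 as the only control, and with a library left out it ran from -0.18 (without DMSO 1) to -0.07 (without DMSO 2 or Yoda1 6). Pfas had the smallest p of these, at 10.2, 16.1 and 16.1 CPM with DMSO and 9.29, 7.21 and 11.04 CPM with Yoda1 (log2 change -0.62, SE 0.30, adjusted p = 0.395). Paics, which carries the sixth and seventh steps, was at 172, 221 and 202 CPM with DMSO and 199, 178 and 197 CPM with Yoda1. Adsl, which acts in both the common route and the AMP branch, was at 223 to 240.3 CPM with DMSO and 235 to 241 CPM with Yoda1. The remaining ring enzymes overlapped between groups too. Ppat ranged from 45.8 to 55.4 CPM with DMSO and from 41.4 to 56.7 CPM with Yoda1, and Gart from 149 to 209 CPM and from 122 to 170 CPM. Atic, which closes the ring to IMP, ranged from 44.1 to 53.6 CPM and from 38.3 to 53.95 CPM, and Gmps, which makes GMP, from 129 to 142.5 CPM and from 131 to 162 CPM. The IMP dehydrogenase genes Impdh1 and Impdh2, the entry to GMP, were at 157 ± 10.0 and 155.5 ± 11.7 CPM with DMSO and at 133 ± 20.5 and 143 ± 5.70 CPM with Yoda1, and the log2 ratio of the isozymes did not separate the groups (exact permutation test, two-sided p = 0.6, adjusted p = 0.88 over 11 ratios). Reads of Impdh2 are uncertain, since 39.3% of the 50-base windows of its transcripts also occur in the pseudogene Impdh2-ps.

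De novo pyrimidine synthesis was covered by 5 genes. None passed in edgeR, DESeq2 or voom or had p under 0.05 before adjustment, all 5 log2 changes were below 0, and their median was -0.15 (-0.25 with DMSO 1 as the only control and -0.22 with the label's end number as a term). Dhodh, the mitochondrial dehydrogenase of the pathway, had the smallest p and was the only gene of the 5 whose groups did not overlap, at 43.2, 43.7 and 47.8 CPM with DMSO and 40.4, 36.4 and 33.0 CPM with Yoda1 (log2 change -0.30, SE 0.17, adjusted p = 0.461). Cad, which carries the first 3 reactions, spanned a wide range within the Yoda1 group, at 51.8, 14.7 and 26.7 CPM against 41.6, 31.9 and 55.0 CPM with DMSO. The CTP synthase genes Ctps and Ctps2 were at 65.8 ± 9.82 and 71.5 ± 8.74 CPM with DMSO and at 61.6 ± 5.89 and 71.1 ± 6.42 CPM with Yoda1. Umps, which closes the route to UMP, ranged from 130.5 to 171 CPM with Yoda1 and from 168 to 183 CPM with DMSO.

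**Figure D3:**
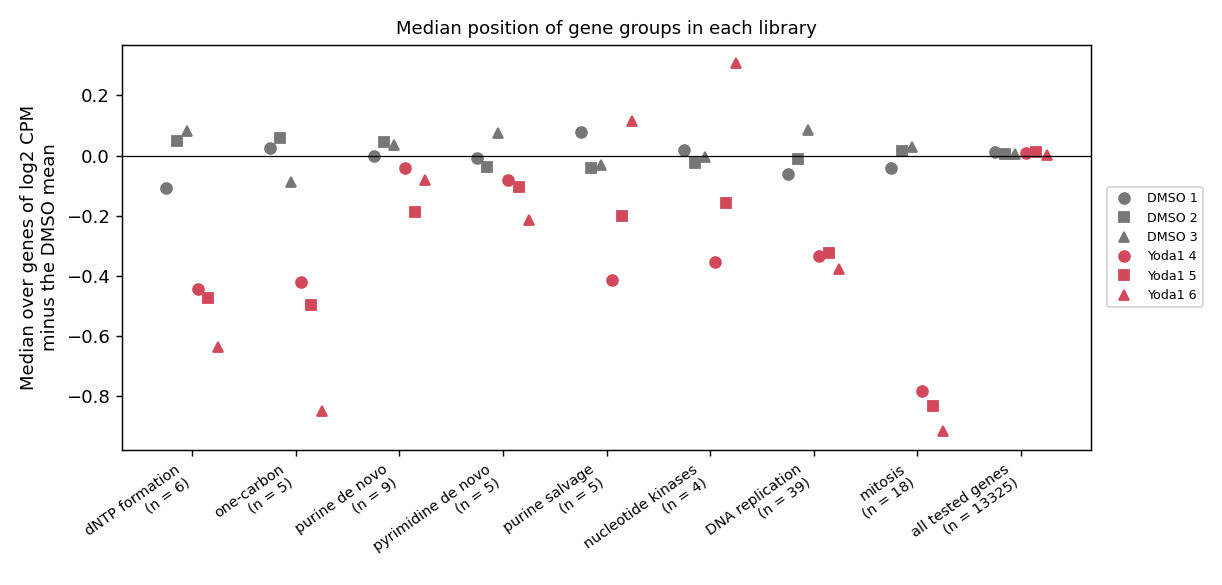
For each library (gray DMSO, red Yoda1) a point gives the median over the genes of a group of log2 CPM minus the DMSO mean of the same gene. The Yoda1 libraries lie at -0.44 to -0.64 for dNTP formation and -0.42 to -0.85 for the one-carbon genes, near -0.04 to -0.19 for purine de novo, and on both sides of 0 for purine salvage and nucleotide kinases.

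Of the 12 salvage genes only Upp1 passed in edgeR, and it rose. Without adjustment 4 were lower at 0.05, against 7.11% of all tested genes. DESeq2 called 3 lower, against 3.39% of all tested genes, and voom none. Upp1, which splits uridine into uracil and ribose 1-phosphate in a reversible reaction, was at 60.5, 67.0 and 61.3 CPM with DMSO, against 149.9, 142 and 198 CPM with Yoda1. Even the lowest Yoda1 library was above the highest DMSO library by more than the whole DMSO range. Upp1 rose 2.59-fold, from 62.9 ± 3.55 to 163 ± 30.0 CPM (SD, n = 3 per group), a log2 change of 1.37 (SE 0.15, adjusted p = 0.00702), and lies on chromosome 11 at 9118103 to 9136170 (plus strand). Its log2 change was 1.21 to 1.47 in all 15 alternatives. Its adjusted p ran from 1.28e-14 to 0.559 and was above 0.05 without DMSO 1 (0.0511), without DMSO 2 (0.0515), without DMSO 3 (0.0723), with libraries of a shared number summed (0.167), with the label's end number as a term (0.195) and with DMSO 1 as the only control (0.559, log2 change 1.42). The uridine-cytidine kinase gene Uck2, which makes UMP from uridine, was at 79.2, 73.3 and 78.2 CPM with DMSO and 83.4, 66.3 and 55.1 CPM with Yoda1, and its relative Uckl1 ranged from 37.4 to 67.6 CPM and from 44.5 to 79.7 CPM; neither passed, and their groups overlapped.

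The deoxynucleoside kinases come in cytosolic and mitochondrial forms. Both cytosolic forms were lower in every Yoda1 library than in any control. Dck, which phosphorylates deoxycytidine and purine deoxynucleosides, was at 57.3, 67.5 and 67.7 CPM with DMSO and 39.9, 39.4 and 43.7 CPM with Yoda1. Tk1, the S phase thymidine kinase, was at 188, 167 and 180.1 CPM and at 113, 128 and 151 CPM. It overlaps Afmid and Gm20708 on the opposite strand, so its reads, and its ratio to Tk2 below, carry the doubt on strand given for Shmt2. Both mitochondrial forms were higher in every Yoda1 library than in any control. Of all tested genes, 12.0% were lower and 10.6% higher without overlap in this way. Dguok, deoxyguanosine kinase, was at 49.1, 45.7 and 49.7 CPM against 52.8, 59.2 and 59.0 CPM. Tk2 was at 23.7, 30.1 and 23.5 CPM with DMSO and 35.4, 31.3 and 31.7 CPM with Yoda1. The log2 changes were -0.65 (SE 0.15) for Dck, -0.45 (SE 0.13) for Tk1, 0.24 (SE 0.15) for Dguok and 0.35 (SE 0.19) for Tk2. None of the 4 passed over all genes in edgeR (adjusted p = 0.082 for Dck, 0.153 for Tk1, 0.496 for Dguok and 0.458 for Tk2), but without adjustment Dck and Tk1 were lower at 0.05; DESeq2 called 2 lower and voom none.

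A ratio of both genes within a library does not depend on how the library is scaled. The log2 ratio of Dck to Dguok counts was 0.22, 0.56 and 0.45 with DMSO and -0.40, -0.59 and -0.43 with Yoda1. The mean difference was -0.88, and every Yoda1 library was below every control. The log2 ratio of Tk1 to Tk2 was 2.99, 2.47 and 2.94 with DMSO and 1.67, 2.03 and 2.25 with Yoda1, a mean difference of -0.82. Both differences reached the smallest p that 3 against 3 allows (exact permutation test, two-sided p = 0.1, adjusted p = 0.55 over 11 ratios), and they were the only 2 of the 11 ratios whose groups did not overlap. With each library left out in turn the differences were -0.98 to -0.81 for Dck to Dguok and -0.98 to -0.66 for Tk1 to Tk2. These could not change sign, since the groups of both ratios do not overlap.

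**Figure D4:**
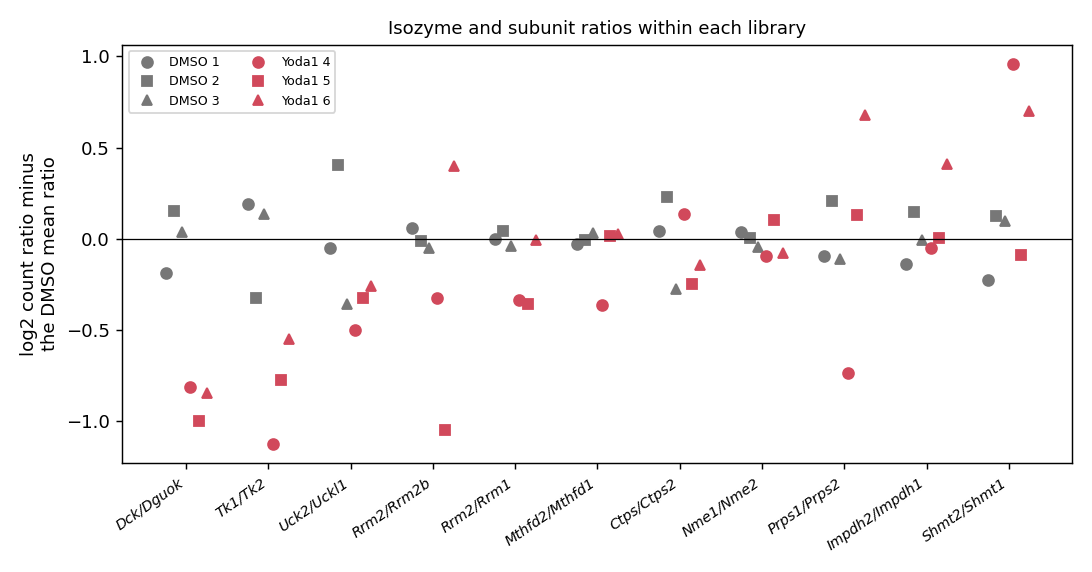
Points give the log2 ratio of the counts of 2 genes in each library minus the DMSO mean of that ratio, for 11 pairs of isozymes or subunits, with DMSO in gray and Yoda1 in red. The Dck to Dguok and Tk1 to Tk2 ratios are lower in every Yoda1 library than in any DMSO library, and in the other 9 pairs the groups overlap.

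None of the 5 purine salvage genes passed in edgeR or voom; Adk and Ada were lower without adjustment at 0.05, and DESeq2 called Adk lower. Adk, adenosine kinase, was at 58.1, 60.4 and 68.4 CPM with DMSO and 46.3, 38.0 and 45.5 CPM with Yoda1, and its log2 change was -0.53 (SE 0.16, adjusted p = 0.164). Ada, which deaminates adenosine, was at 86.4, 76.0 and 81.1 CPM and at 55.5, 67.2 and 68.5 CPM, again without overlap. The base phosphoribosyltransferases Hprt and Aprt overlapped between groups, at 157.5 ± 7.56 and 372 ± 24.2 CPM with DMSO and at 150.4 ± 25.8 and 349 ± 63.7 CPM with Yoda1. Pnp, purine nucleoside phosphorylase, was at 77.5 to 102.5 CPM with DMSO and 95.4 to 122 CPM with Yoda1, and 18.9% of its 50-base windows also occur in other genes, the neighbouring copy among them, so its reads are uncertain.

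Of the 7 shared enzymes only Samhd1 passed. The PRPP synthetase genes Prps1 and Prps2 were at 81.5 ± 3.36 and 22.7 ± 3.53 CPM with DMSO and 76.4 ± 4.49 and 22.2 ± 9.94 CPM with Yoda1 (adjusted p = 0.791 and 0.979). Nme1, which encodes a nucleoside diphosphate kinase, was at 756, 709 and 698 CPM with DMSO and 545, 661 and 800.3 CPM with Yoda1. Nme2, of the same kinase family, was at 140.2, 148 and 203.5 CPM with Yoda1 against 170.1 to 177 CPM with DMSO; the reads of both are uncertain because the annotated readthrough gene Gm20390 spans them and shares 47% of the windows of Nme2 and 11.1% of those of Nme1. Dtymk, thymidylate kinase, was at 101 to 102 CPM with DMSO and at 75.0, 88.9 and 132.5 CPM with Yoda1. Cmpk1, the UMP and CMP kinase, was at 292, 293 and 337 CPM with DMSO and 339, 331 and 455 CPM with Yoda1 (log2 change 0.29, SE 0.14, adjusted p = 0.382). In Nme1, Nme2, Dtymk and Cmpk1 Yoda1 6 was the highest of all 6 libraries, and the SD within the Yoda1 group was larger than within the DMSO group.

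Beyond the members, 55 further genes of the pathways were tested, of 69 listed, and Ahcy, which hydrolyses S-adenosylhomocysteine in the methyl cycle, was the only one that passed. It was at 88.5, 78.2 and 90.9 CPM with DMSO and 56.4, 45.1 and 49.95 CPM with Yoda1, and fell by 0.77 on the log2 scale (SE 0.15, adjusted p = 0.0481). This call was lost in each of the 6 fits with a library left out (adjusted p = 0.0596 to 0.196). None rose in edgeR. Without adjustment 6 were lower and 3 higher at 0.05, against 7.11% and 7.39% of all tested genes. DESeq2 called 4 lower and 2 higher, against 3.39% and 3.11%, and voom called 2 lower, against 1.34%. Among the serine and one-carbon genes DESeq2 called Ahcy, the serine synthesis genes Phgdh and Psat1 and the mitochondrial serine carrier Sfxn1 lower. Of the 21 genes of this list tested, 14 had log2 changes below 0 and 7 above, with a median of -0.12. Without adjustment 5 of them were lower and 1 higher at 0.05. Phgdh, the first enzyme of serine synthesis, was at 351, 305 and 321 CPM with DMSO and 253, 193 and 209 CPM with Yoda1, and was not past the threshold (adjusted p = 0.0667). Serine synthesis supplies the substrate of the Shmt enzymes. Of the 18 other purine and 14 other pyrimidine genes none passed in edgeR, with 1 and 0 lower and 1 and 1 higher at 0.05 without adjustment, with Nt5e and Nme7 higher in DESeq2 and none in voom. Neither of the 2 nucleoside transporter genes tested passed in edgeR, DESeq2 or voom, nor without adjustment at 0.05.

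Genes of DNA replication, whose products use dNTPs, and of mitosis were listed for comparison. Beside the counts below, 0.923% of all tested genes were lower in edgeR and 7.11% at 0.05 without adjustment. DESeq2 called 3.39% of them lower and voom 1.34%. Of 39 DNA replication genes only Ccna2 and Lig1 passed in edgeR, and both fell; 17 were lower and none higher at 0.05 without adjustment, DESeq2 called 12 lower and voom 4, and neither called one higher; the median log2 change was -0.33. Ccna2, which encodes cyclin A2, was at 245, 247.5 and 234 CPM with DMSO and 157, 139 and 150.1 CPM with Yoda1, and Lig1, DNA ligase I, at 286, 255 and 278.5 CPM and at 187, 191 and 197.5 CPM. The call of Ccna2 was lost when DMSO 1, DMSO 2, DMSO 3 or Yoda1 5 was left out, and that of Lig1 when any library but Yoda1 6 was. Of 18 mitosis genes 12 passed in edgeR and fell, with a median of -0.84. All 18 were lower at 0.05 without adjustment and in DESeq2, voom called 13 lower, and none was higher by any of these. With a library left out 0 (without DMSO 3) to 10 (without Yoda1 6) passed. With the label's end number as a term, or with libraries of a shared number summed, 0 did. The median of -0.46 for the dNTP formation genes lay between the medians of these lists, and how far the cell cycle state of the libraries enters the values of Rrm2, Rrm1, Tk1, Dck and the one-carbon genes was not tested. Among the other lists Srm, spermidine synthase, fell out of 17 Myc and ribosome biogenesis genes (median -0.15), where 4 were lower and 0 higher at 0.05 without adjustment and DESeq2 called Srm, Cdk4, Ncl and Nolc1 lower. Slc3a2, an amino acid transporter chain, fell out of 17 ATF4 targets (median -0.10). In this list 2 were lower and 1 higher at 0.05 without adjustment, and DESeq2 called Slc3a2 and Slc7a5 lower. The list does not hold Shmt2, Mthfd2, Phgdh or Psat1, which DESeq2 called lower among the members and serine genes. Its median therefore does not cover them. None of 12 p53 targets passed in edgeR (1 higher and 0 lower at 0.05 without adjustment, 1 higher in DESeq2, median 0.09). The call of Srm was lost in every fit with a library left out (adjusted p = 0.0557 to 0.206), and that of Slc3a2 when any DMSO library was left out (0.0511 to 0.0723).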

How the data were processed

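The authors deposited expected counts (estimates that can be fractions) of 17546 genes in 6 libraries as 1 table. The build was mm10, per the submitters' processing notes. Partek software is named in the deposited table's title; aligner, counting method, strand setting and annotation were not given in the sources used here. Counts were rounded to whole numbers, and within-group pairs of libraries differed beyond sampling noise (lowest chi-square per degree of freedom 18.1). Genes were kept by filterByExpr (minimum count 10, minimum total 15) and tested with the quasi-likelihood functions of edgeR 4.0.16 (R 4.3.3) after TMM scaling, with no covariate; p-values were adjusted by Benjamini-Hochberg over 13325 genes, and 0.05 was the threshold; the standard error is the size of the log2 change over the square root of F. The script was tested on simulated data. CPM are TMM-scaled over tested genes, except marker sums, which are CPM of all counts; values per kilobase use the union of GENCODE M21 exons (GRCm38, the build also called mm10), and the authors' gene models may differ. Ratios of 2 genes used counts plus 0.5 and an exact permutation test over 11 pairs. Shared windows are runs of 50 bases found in transcripts of another gene on the same strand. Promoter sequences are RefSeq's (GRCm38.p6), with a start for 41 of 44 members.

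The members, lists and pairs were chosen with earlier results of these data known. Full values are given for members past the threshold, for their partners in the pairs, and for the member with the smallest p of a role without one; values of other members were added after they were seen. From other lists up to 4 genes past the threshold are named, or up to 2 where none passed; Phgdh, Psat1, Sfxn1, the single marker genes and genes named as called by DESeq2 only were chosen after their values were seen. Alternatives were DESeq2 1.42.0, limma 3.58.1 voom, other scaling factors and filters, the label's end number as a term, summed libraries with a shared label number, DMSO 1 as the only control, and each library left out.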

Additional observations from a re-analysis of the deposited data

How the results depend on the processing

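The number of members called depended on the test and the samples. In place of 1 lower and 2 higher, upper quartile factors gave 3 and 1, DESeq2 9 and 2 and voom 4 and 2. A filter of 10 CPM in 3 libraries gave 7 and 2, and no filter 1 and 1. The counts over all genes changed too, from 123 lower and 76 higher of 13325 as reported. They were 174 and 57 with upper quartile factors, 452 and 414 with DESeq2 and 179 and 121 with voom. The stricter filter gave 290 and 158 of 8518, and no filter 83 and 50 of 17546. With the label's end number as a term, with libraries of a shared label number summed, and with DMSO 1 alone as the control (assumed to vary like the Yoda1 libraries), 0 members were called in either direction; of all genes these 3 fits called 1, 0 and 0 lower and 2, 1 and 0 higher. Leaving out a library in turn gave 0 to 1 lower and 0 to 1 higher, with 5 to 146 lower and 4 to 74 higher of all genes. Pathway genes beyond the members lower were 2 with upper quartile factors, 4 with DESeq2, 2 with voom, 2 with the stricter filter, and 0 without a filter and in those 3 fits; 2 were higher with DESeq2, and leaving out a library gave 0 to 1 lower and 0 higher. DNA replication genes lower, 2 as reported, were 12 with DESeq2, 4 with voom, 9 with the stricter filter, 1 without a filter, 0 in those 3 fits and 0 to 2 with a library left out. The median log2 change of salvage, -0.08, was -0.13 with upper quartile factors and -0.18 with DMSO 1 alone. With a library left out it was -0.1256 to -0.0324, for de novo synthesis -0.28 to -0.16 and for one-carbon enzymes -0.67 to -0.45. The cause of these differences was not tested. None of the 15 members with an unadjusted p under 0.05 and neither separated ratio turned direction in any alternative that tested them (the filter of 10 CPM drops Dctd). Nothing is read from this, since they were picked by p or by separation in these same data. Where the groups do not overlap, leaving out a library can hardly turn the direction. Ratios whose groups overlapped were not put through the alternatives. No paired analysis was possible because the groups share no replicate number. In the shallowest library 3 counts, the limit a zero allows, are 0.211 CPM, for counting error only.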
